A study of Mus musculus with 20 samples.

Results

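The genes described here are 9 members of the Slc22 family of membrane transporters, Slc22a2, Slc22a4, Slc22a5, Slc22a6, Slc22a7, Slc22a8, Slc22a12, Slc22a19 and Slc22a30, found by gene name among the 55401 genes of the count table. They were measured by RNA-seq in 20 libraries from 5 organs (kidney, liver, small intestine, heart and spleen) of wild-type (WT) and Nsun6 knockout (KO) mice, with 2 libraries for each organ and genotype. All animals were females aged 8 weeks, and the labels name no other treatment. The methods describe an immunization of mice for the antibody experiments and do not name it for these libraries. The KO strain was made in C57BL/6J embryos by removing exons 3 and 4 of Nsun6, which encodes an RNA cytosine methyltransferase, with CRISPR/Cas9. The total count was between 15897446 and 44508197 per library (median 28513950). Levels below are counts scaled for merged exon length and library size (RPKM, after TMM scaling over the 20 libraries). Nsun6 itself stood at 1.11 and 1.20 RPKM in the WT kidney and at 0.79 and 0.66 in the KO kidney. The liver values were 1.44 and 0.96 RPKM (WT) against 0.79 and 0.91 (KO). The heart libraries stood at 1.39 and 1.34 RPKM in WT and 1.20 and 1.11 in KO. The KO libraries thus lay below the WT libraries in these 3 organs, in RPKM (the heart libraries overlapped in TPM, which is counts per length as a share of all such values of the library, without TMM), while they overlapped in the small intestine (1.93 and 1.22 against 1.93 and 1.03) and the spleen (1.22 and 0.88 against 0.81 and 1.32). None of these differences was called. A count over the whole gene does not check the loss of these exons.

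Slc22 proteins move organic ions across the plasma membrane. In the proximal tubule of the kidney, organic anion transporters on the blood side (Slc22a6 or OAT1, Slc22a8 or OAT3) and organic cation transporters (Slc22a2 or OCT2) take up drugs, toxins and metabolites for secretion into urine. On the urine side Slc22a12 (URAT1) takes urate back. Slc22a5 (OCTN2) is the carnitine transporter that keeps carnitine from being lost in urine and brings it into tissues that burn fatty acids, and Slc22a4 (OCTN1) carries ergothioneine. Slc22a7 (OAT2) is an anion transporter of liver and kidney. Slc22a19 and Slc22a30 belong to a rodent cluster of anion transporter genes on chromosome 19.

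Of the 9 members 5 lie on chromosome 19 of GRCm38, and 4 of these fall in a pair of stretches. Slc22a8 (ENSMUSG00000063796, chr19:8591254-8611835) and Slc22a6 (ENSMUSG00000024650, chr19:8618039-8628299) are neighbours on the plus strand with no annotated gene between them. Slc22a19 (ENSMUSG00000024757, chr19:7673061-7711310) and Slc22a30 (ENSMUSG00000052562, chr19:8335371-8405111) are the ends of a minus-strand row of Slc22 genes that runs through Slc22a26, Slc22a27, Slc22a28 and Slc22a29. The promoter windows of Slc22a19, Slc22a28 and Slc22a30 are shown because genes of this row with like windows differed in organ use. They come from RefSeq (GRCm38.p6), matched by symbol for 8 of the 9 members, all but Slc22a7. Each is read 5′ to 3′ on the gene's strand, from 250 bases before the start site to 50 after it. Capitals mark the longest run of bases, 98 long, that the windows of Slc22a28 and Slc22a30 share. The windows are chr19:7711261-7711560 (Slc22a19), chr19:8131933-8132232 (Slc22a28) and chr19:8405056-8405355 (Slc22a30).
Slc22a19: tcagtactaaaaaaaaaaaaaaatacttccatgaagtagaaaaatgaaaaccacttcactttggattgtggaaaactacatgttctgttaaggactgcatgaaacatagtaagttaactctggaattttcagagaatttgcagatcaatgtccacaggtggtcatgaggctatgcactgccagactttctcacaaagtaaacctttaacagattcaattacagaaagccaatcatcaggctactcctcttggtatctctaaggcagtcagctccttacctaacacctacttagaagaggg
Slc22a28: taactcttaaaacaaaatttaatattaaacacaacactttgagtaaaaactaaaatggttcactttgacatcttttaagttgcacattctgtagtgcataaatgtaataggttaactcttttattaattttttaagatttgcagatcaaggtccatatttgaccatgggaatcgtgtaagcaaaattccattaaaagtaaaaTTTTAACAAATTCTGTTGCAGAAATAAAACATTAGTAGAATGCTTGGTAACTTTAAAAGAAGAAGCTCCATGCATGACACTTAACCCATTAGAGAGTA
Slc22a30: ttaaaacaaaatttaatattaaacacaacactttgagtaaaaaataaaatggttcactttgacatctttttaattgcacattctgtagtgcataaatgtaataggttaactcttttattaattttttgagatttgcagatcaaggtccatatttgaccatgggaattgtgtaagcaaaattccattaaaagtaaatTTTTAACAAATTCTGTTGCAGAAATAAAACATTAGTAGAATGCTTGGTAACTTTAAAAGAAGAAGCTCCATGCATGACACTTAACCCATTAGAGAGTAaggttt
The windows of Slc22a28 and Slc22a30 were 94.1% identical, and those of Slc22a19 and Slc22a30 were 61.9% identical. Slc22a19 and Slc22a28 were 61.1% identical. The window of Slc22a29, not shown, was 68.0% identical to that of Slc22a28 and 65.3% to that of Slc22a30.

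Because RPKM is per length, genes can be set side by side. Levels are given per library and as means ± SD over the 4 libraries of an organ (2 WT and 2 KO). In these bulk samples fewer cells of a type and less RNA per cell cannot be told apart. The kidney libraries carried proximal tubule markers (Kap at 21800 to 56610 RPKM), the liver libraries albumin (Alb at 65290 to 132400), the small intestine Fabp2 (5508 to 11140), the heart Myl2 (7945 to 17980) and the spleen Cd79a (189.4 to 394). Before the results, 4 libraries need naming. The spleen WT replicate 2 held liver transcripts, with Alb at 1154 RPKM against 1.58, 40.2 and 57.9 in the other 3 spleen libraries. The spleen KO replicate 1 held kidney transcripts, with Kap at 48.1 RPKM against 0.30 to 0.65 in the other 3. The small intestine KO replicate 1 held heart transcripts, with Myl2 at 87.0 RPKM against 0.50 to 1.12. The liver WT replicate 1 held them at a lower level, with Myl2 at 5.61 RPKM against 0.21 to 0.89 in the other liver libraries. It also had the lowest Alb of the liver libraries (65290 RPKM). In addition the replicates of the small intestine differed in markers of position along the gut. Slc10a2, the ileal bile acid transporter, stood at 605 and 971 RPKM in replicates 1 (WT and KO) and at 1.09 and 1.96 in replicates 2. Lct, the lactase of the upper small intestine, stood at 0.0044 and 0.023 RPKM in replicates 1 and at 105 and 291 in replicates 2.

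**Figure D1:**
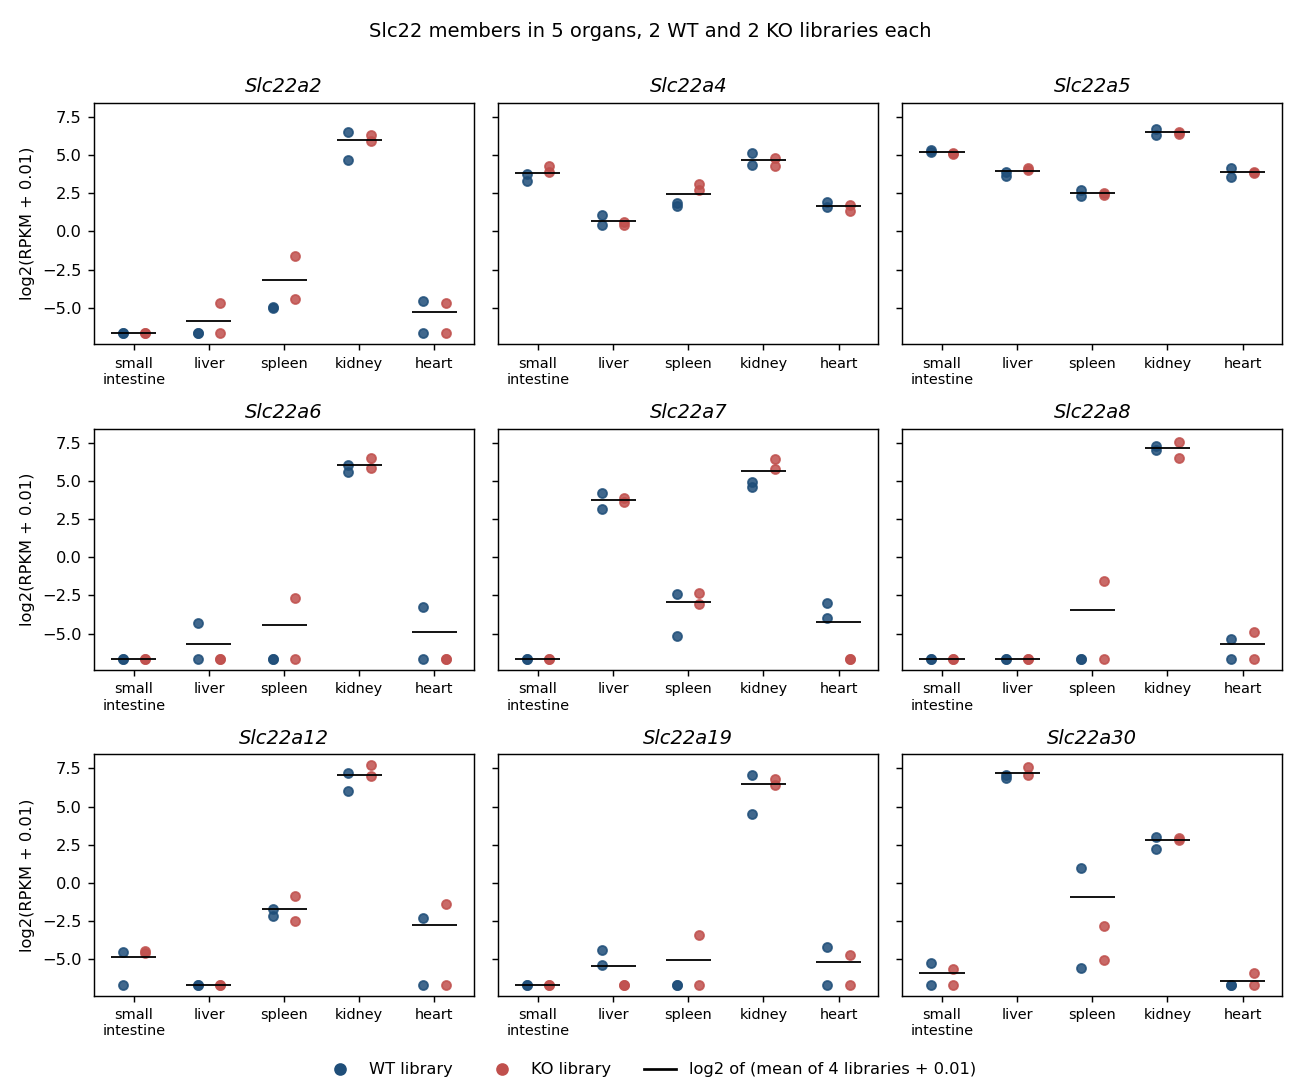
Level of each of the 9 members by organ, as log2 of RPKM plus 0.01. Each point is 1 library (blue WT, red KO) and each black line is the log2 of the organ mean plus 0.01. Slc22a2, Slc22a6, Slc22a8, Slc22a12 and Slc22a19 stood above 20 RPKM in all 4 kidney libraries and under 1 RPKM in every library of the other organs, Slc22a30 peaked in the liver, and Slc22a4 and Slc22a5 were read in all 5 organs.

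To see where the members were used, all 10 pairs of organs were compared with edgeR's quasi-likelihood test over the 20 libraries, calling genes that changed over 2-fold with an adjusted p (Benjamini-Hochberg, over all genes tested) under 0.1. The mean level was highest in the kidney for 8 of the 9 members. The kidney was called higher than the heart for 9 of 9 members (19.9% of the 23159 genes tested were called in this direction), than the spleen for 9 of 9 (26.4%), than the liver for 8 of 9 (21.1%) and than the small intestine for 8 of 9 (22.6%). The liver was called higher than the kidney for 1 member, Slc22a30 (13.6% of genes). The summed level of the 9 members was 668.6 RPKM in the kidney, 177.3 in the liver, 51.4 in the small intestine, 18.03 in the heart and 12.3 in the spleen. The order of heart and spleen depended on the scaling, since in TPM the sums were 44.9 in the heart and 46.4 in the spleen. The gap of kidney and liver was wider in TPM, at 1912 and 290.3. They made up 56.7% of the summed level of all 26 Slc22 genes in the kidney and 28.9% in the liver.

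The organic anion transporters of the tubule were read almost wholly in the kidney. Slc22a8 stood at 155.1 and 127.9 RPKM in the WT kidney and at 183.3 and 90.8 in the KO kidney. It had no count in any of the 8 libraries of small intestine and liver, so its kidney mean of 139.3 ± 39.4 RPKM was at least 20500-fold higher than in the small intestine and at least 16800-fold higher than in the liver. These bounds use a floor of 3 counts over the 4 libraries of the organ and cover counting error only. They take counts as independent. If the mates of a read pair were counted separately, these and the like bounds below are too high. In the spleen its 56 counts all came from the KO replicate 1, the library with kidney transcripts, and it stood there at 0.33 RPKM.

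Slc22a6 stood at 48.7 and 65.5 RPKM in the WT kidney and at 90.1 and 56.7 in the KO kidney. Its kidney mean of 65.2 ± 17.96 was at least 9780-fold above the small intestine, where no library held a count. In the spleen it was read in the KO replicate 1 alone, at 0.15 RPKM. Across the 20 libraries, which share 5 organs, the log2 CPM of Slc22a6 and Slc22a8 had a Pearson's r of 0.98, given as a description.

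The organic cation transporter Slc22a2 (ENSMUSG00000040966, chr17:12584132-12628488, plus strand) stood at 25.5 and 92.9 RPKM in the WT kidney and at 79.2 and 62.0 in the KO kidney, so that the WT libraries lay on both sides of the KO libraries. It was at 0 in all 4 libraries of the small intestine, at least 6070-fold below the kidney mean of 64.9 ± 29.2 RPKM. The liver held 2 counts over 4 libraries, a ratio of 7460 with a 95% counting interval (exact Poisson) of 2070 to 61600. This interval takes counts as independent and is too narrow if the mates of a read pair were counted separately.

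The urate transporter Slc22a12 (ENSMUSG00000061742, chr19:6535845-6543032, minus strand) stood at 149.6 and 64.6 RPKM in the WT kidney and at 208.3 and 127.3 in the KO kidney. It had no count in the liver, at least 9600-fold below its kidney mean of 137.5 ± 59.4 RPKM. Low counts appeared in the heart, at 0, 0.20, 0 and 0.37 RPKM over WT and KO replicates 1 and 2, and in all 4 spleen libraries, at 0.17 to 0.53 RPKM. Of its exon bases 30.1% overlap exons of Nrxn2 on the opposite strand. Reads there cannot be assigned if strand was not used in counting, as in the recorded command, and its level is then uncertain.

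Slc22a19 stood at 23.2 and 133.6 RPKM in the WT kidney and at 84.5 and 114.4 in the KO kidney, 5.75-fold from lowest to highest. Its kidney mean was 88.9 ± 48.2 RPKM, at least 18200-fold above the small intestine, where it had no count. In liver and heart it held 6 counts each. In the order of kidney means Slc22a8, Slc22a12, Slc22a5, Slc22a19, Slc22a6, Slc22a2, Slc22a7, Slc22a4 and Slc22a30, the differences between neighbours were smaller than the SD of at least one of the neighbours, except from Slc22a4 (25.7 ± 7.2) to Slc22a30 (6.91 ± 1.5).

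Slc22a7 (ENSMUSG00000067144, chr17:46432183-46438457, minus strand) was read in kidney and liver. In the liver it stood at 18.7 and 9.09 RPKM in WT and at 14.7 and 12.3 in KO. In the kidney it stood at 30.8 and 23.9 RPKM in WT and at 86.6 and 56.1 in KO, all 4 above the highest liver library. The kidney was called higher (log2 difference of liver minus kidney -1.66, SE 0.42, adjusted p = 0.00805 by edgeR's quasi-likelihood test). With the WT libraries alone the difference was -0.97 and was not called (adjusted p = 0.418). The small intestine had no count in any library.

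Slc22a30 was the member led by the liver, at 136.3 and 120.0 RPKM in WT and at 134.9 and 194.8 in KO, against 4.76 and 7.99 in the WT kidney and 6.99 and 7.88 in the KO kidney. The liver mean of 146.5 ± 33.0 RPKM was called higher than the kidney mean of 6.91 ± 1.5 (log2 difference 4.43, SE 0.91, adjusted p = 0.00213 by edgeR's quasi-likelihood test). With the WT libraries alone the log2 difference was 4.34 and the adjusted p = 0.104. The heart held 1 count over its 4 libraries and the small intestine 3.

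Along the chromosome 19 row, genes higher in the kidney and genes higher in the liver lay among each other. Slc22a19 stood at 88.9 ± 48.2 RPKM in the kidney and at 0 to 0.039 in the liver libraries. Slc22a26 and Slc22a27 were higher in the liver (120.2 ± 35.5 and 51.5 ± 10.1 RPKM) than in the kidney (29.1 ± 22.2 and 3.44 ± 1.87), which was called for Slc22a27 (adjusted p = 0.000593) and not for Slc22a26 (adjusted p = 0.148, edgeR's quasi-likelihood test for both). Slc22a28 and Slc22a29 went the other way, with 29.4 ± 5.3 and 53.8 ± 3.6 RPKM in the kidney against 3.48 ± 2.30 and 3.56 ± 3.62 in the liver. Both differences were called (adjusted p = 0.00683 and adjusted p = 0.00172 by edgeR's quasi-likelihood test). Slc22a30, next in the row, was higher in the liver.

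Slc22a28 and Slc22a30 thus had 94.1% identical promoter windows and opposite organ use. Their coding sequences were 98.8% identical, with one identical run of 431 bases, so reads that lie within identical stretches cannot be told apart. How many reads this concerned was not measured, and both levels are uncertain. Slc22a30 shared 92.2% of coding bases with Slc22a29 and 91.6% with Slc22a27. Slc22a19 stood further away, at 75.3% to 76.0% identity with the other 5 genes of the row.

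**Figure D2:**
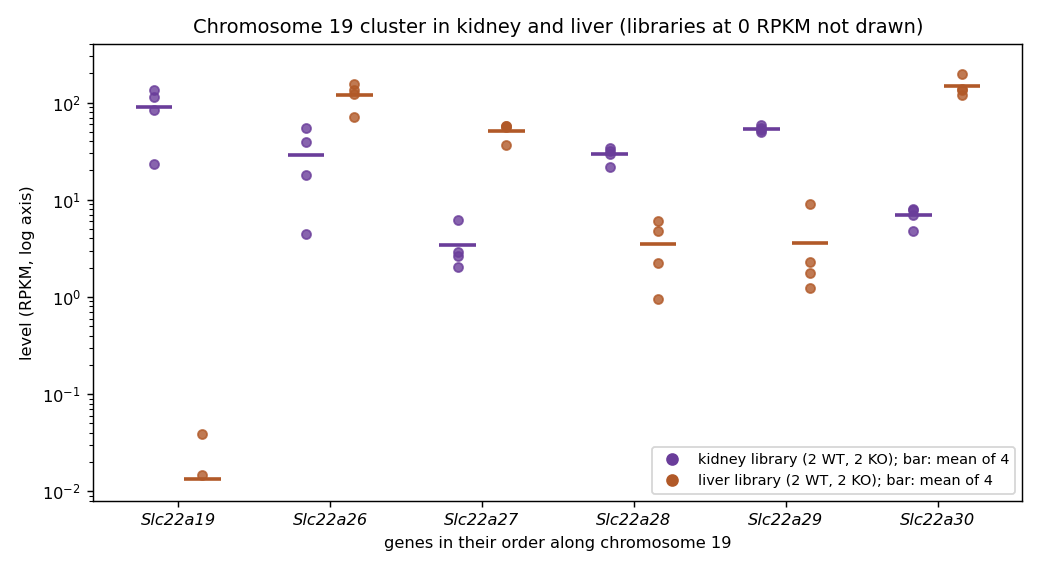
Level (RPKM, log axis) of the 6 genes of the chromosome 19 row, in their order along the chromosome, in kidney (purple) and liver (brown). Each point is 1 library, each bar the mean of 4 libraries, and libraries at 0 are not drawn. Slc22a19, Slc22a28 and Slc22a29 were higher in the kidney and Slc22a26, Slc22a27 and Slc22a30 in the liver.

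The carnitine transporter Slc22a5 (ENSMUSG00000018900, chr11:53864542-53891660, minus strand) was read in all organs with a small spread. Its mean was 90.9 ± 10.6 RPKM in kidney, 36.9 ± 3.1 in small intestine, 15.5 ± 2.3 in liver, 14.6 ± 2.7 in heart and 5.64 ± 0.62 in spleen. The libraries of kidney (81.1 to 104.8), small intestine (33.5 to 40.8) and spleen (5.09 to 6.49) overlapped with no other organ, while those of liver (12.6 to 18.1) and heart (11.6 to 18.1) overlapped. In TPM it was the spleen (19.1 to 25.8) that overlapped with the liver (23.1 to 27.2), and the heart (28.1 to 43.8) lay above both. Of the 10 organ pairs 9 were called, and liver against heart was not (log2 difference 0.09, adjusted p = 0.753 by edgeR's quasi-likelihood test). In the heart Slc22a5 made up 56.8% of the summed level of all Slc22 genes, and the 9 members together 70%.

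Slc22a4 (ENSMUSG00000020334, chr11:53983123-54028090, minus strand), which is separated from Slc22a5 on chromosome 11 by Slc22a21, followed another order. Its mean was 25.7 ± 7.2 RPKM in the kidney, 14.5 ± 3.86 in the small intestine, 5.49 ± 2.56 in the spleen, 3.16 ± 0.55 in the heart and 1.58 ± 0.38 in the liver. The kidney was higher than the small intestine by 0.81 on the log2 scale, under the fold change threshold although the adjusted p was 0.0131. Spleen and heart (log2 difference 0.69, adjusted p = 0.0277) and liver and heart (-0.99, adjusted p = 0.00435) also stayed under it, all by edgeR's quasi-likelihood test. With the WT libraries alone the spleen and heart differed by -0.01. Spleen exceeded liver for Slc22a4 while liver exceeded spleen for Slc22a5 (log2 difference of liver minus spleen -1.68 and 1.47), both called. For Slc22a4 the gap was smaller in WT (3.24 and 3.60 RPKM in spleen, 2.12 and 1.32 in liver). In KO the values were 8.67 and 6.47 RPKM in spleen and 1.31 and 1.56 in liver. For Slc22a5 the means in TPM were 25.2 in the liver and 21.4 in the spleen, a smaller gap.

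Slc22a21, the third gene of this type, shared 89.4% of coding bases with Slc22a5 and a run of 157 identical bases, and 73.7% with Slc22a4. It stood at 15.7 and 13.2 RPKM in the small intestine replicates 1 (WT and KO) and at 3.82 and 4.02 in replicates 2. Slc10a2 was split between the same libraries, and the part of gut position in the Slc22a21 levels was not tested. Slc22a5 varied little between the same libraries (37.3 and 40.8 RPKM in WT, 35.8 and 33.5 in KO). Slc22a4 stood at 10.02 and 13.8 RPKM in WT and at 19.4 and 14.6 in KO.

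Among the other pairs, 4 members were called between small intestine and liver (46.3% of genes were called), 6 between small intestine and spleen (49.5%), 3 between small intestine and heart (53.5%), 6 between liver and spleen (52.2%), 3 between liver and heart (44.5%) and 3 between spleen and heart (52.6%). Slc22a4 and Slc22a5 were higher in the small intestine than in liver, spleen and heart. The spleen calls of Slc22a2, Slc22a7, Slc22a12 and Slc22a30 were made on levels at or under 1.93 RPKM. In the spleen WT replicate 2, the median over 208 liver genes was 1.17% of the level in liver, and Slc22a30 was at 1.93 RPKM there against 0.01, 0.02 and 0.13 in the other 3 spleen libraries. In the spleen KO replicate 1 the median over 97 kidney genes was 0.151% of the level in kidney, against 0.00193% to 0.0247% over the genes available in the other 3. Without both libraries 5 members were called between liver and spleen, 6 between small intestine and spleen, and 9 higher in the kidney than in the spleen. With the WT libraries alone these counts were 4, 5 and 8. The shares of all genes called in these smaller sets are not given here. A change in the members therefore cannot be told apart from a general change in calls.

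**Figure D3:**
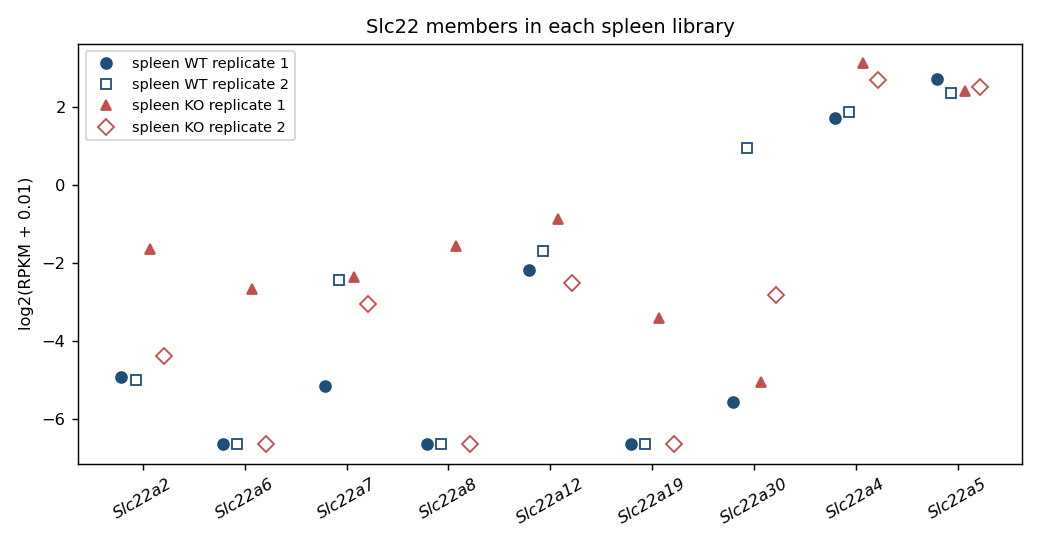
Level of the 9 members in each of the 4 spleen libraries, as log2 of RPKM plus 0.01. Each symbol is 1 library. Slc22a2, Slc22a6, Slc22a8 and Slc22a19 were highest in the KO replicate 1, Slc22a30 was highest in the WT replicate 2, and Slc22a4 stood higher in both KO libraries (8.67 and 6.47 RPKM) than in both WT libraries (3.24 and 3.60).

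The genes whose log2 CPM followed each member most closely over the 20 libraries are given as a description. Slc22a8, Alx1 and Defb29 were most like Slc22a2 (Pearson's r 0.99 for each). Cyp24a1, Slc12a1 and Hoxa10 were most like Slc22a8 (0.99), Slc7a12, Slc22a19 and Tfap2b most like Slc22a6 (0.99), and Slc22a6, Defb29 and Slc7a12 most like Slc22a19 (0.99). Slc12a1 is the salt transporter of the thick ascending limb, so a gene of another nephron segment reached the same r. Gm31641, Folh1 and Slc12a3 were most like Slc22a12 (0.98). Aadat, Keg1 and Ugt3a2 were most like Slc22a7 (0.98), and Akr1d1, C8a and Gm6135 most like Slc22a30 (0.99), of which Akr1d1 makes bile acids and C8a is a complement component of the liver. Slc22a4 followed Cachd1, St6galnac2 and Mfsd9 (0.95 to 0.96) and Slc22a5 followed 4833439L19Rik, Nus1 and Tcn2 (0.95 to 0.97). The 20 libraries fall into 5 organs, which all of these genes share.

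Whether the loss of Nsun6 changed expression was asked in each organ. After the filter on low counts 9 members were tested in the kidney, 5 in the spleen, 4 in the liver, 3 in the heart and 2 in the small intestine. None was called in any organ by edgeR (adjusted p over all genes tested). The share of all tested genes that was called was 0.223% in the spleen, 0.0509% in the liver and 0% each in kidney, heart and small intestine. At an unadjusted p under 0.05 there was 1 member in the spleen, Slc22a4 (5.14% of all genes tested), 1 in the kidney, Slc22a7 (0.638%), and 0 in the liver (4.7%), heart (0.703%) and small intestine (2.39%). DESeq2 called 1 member in the spleen, where it called 1.32% of the genes to which it gave an adjusted p. It called 0 members in the other 4 organs, with shares of the genes given an adjusted p of 0.012% in heart, 0% in kidney, 0.408% in small intestine and 0.403% in liver. KO and WT libraries did not overlap for 1 kidney member (20.8% of genes tested), 1 liver member (33%), 1 spleen member (31.6%), 2 members of the small intestine (25.1%) and 0 in the heart (17.2%). The median KO against WT log2 fold change over the 9 kidney members (6 above 0, 3 below) was 0.26, and over all genes tested it was -0.03. Over the 5 spleen members (3 above 0, 2 below) it was 0.48, and over all genes tested 0.01. Of these members Slc22a7, Slc22a12 and Slc22a30 stood at or under 1.93 RPKM in every spleen library. Slc22a12 was highest in the KO replicate 1, which held kidney transcripts, and Slc22a30 in the WT replicate 2, which held liver transcripts. The part of such transcripts in this median was not tested. The spleen values of Slc22a5, Slc22a7, Slc22a12 and Slc22a30 changed sign when 1 library was left out.

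Slc22a4 in the spleen stood at 3.24 and 3.60 RPKM in WT and at 8.67 and 6.47 in KO, both KO libraries above both WT libraries. The log2 fold change was 1.18 (SE 0.22, adjusted p = 0.147 by edgeR's quasi-likelihood test). The adjusted p was 0.000627 with DESeq2, 0.095 with at least 10 counts in every library, 0.000152 with no filter and 0.128 to 0.282 when 1 library was left out, and over all alternatives it ranged from 0.000152 to 1. Erythroid markers moved the same way in these libraries. All 5 were higher in both KO libraries, 3 of them were called (among them Slc4a1 and Alas2, with log2 fold changes of 1.57 and 1.34 and adjusted p of 0.0656 and 0.0839 by edgeR), and the summed level of the list was 7253 and 10000 RPKM in WT and 16210 and 15040 in KO. Hba-a1 was the most abundant in 3 of the 4 libraries and Hbb-bt in the KO replicate 2. Adipocyte markers were also higher (5 of 5, none called), with a summed level of 17.03 and 4.83 RPKM in WT and 37.4 and 33.5 in KO. The part of these cells in the Slc22a4 difference was not tested. Lymphocyte markers were lower in 5 of 5 genes, none called. Slc22a30 in the spleen had a log2 fold change of -3.62 (SE 2.83, adjusted p = 1), which turned to 2.74 without the WT replicate 2.

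Slc22a7 in the kidney stood at 30.8 and 23.9 RPKM in WT and at 86.6 and 56.1 in KO, without overlap. The log2 fold change was 1.37 (SE 0.36, adjusted p = 1 by edgeR's quasi-likelihood test). In the liver, the other organ that uses this gene, it was -0.03 (adjusted p = 0.999). A difference of the genotype effect between the 5 organs was not called for any member (0% of 23159 genes were called by the F test of the interaction in edgeR's quasi-likelihood fit). The smallest p of this test among the members was 0.0476 for Slc22a4, followed by 0.0542 for Slc22a7, each with an adjusted p of 1.

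For each of the other 8 members in the kidney, the larger of the WT and KO replicate differences exceeded the genotype difference on the log2 scale. The log2 fold changes of KO against WT were 0.63 (SE 0.55) for Slc22a12, 0.36 (SE 0.39) for Slc22a6, 0.36 (SE 0.81) for Slc22a19, 0.26 (SE 0.62) for Slc22a2, 0.22 (SE 0.39) for Slc22a30, -0.05 (SE 0.49) for Slc22a8, -0.07 (SE 0.34) for Slc22a5 and -0.24 (SE 0.40) for Slc22a4, with an adjusted p of 1 by edgeR for each. The CV over the 4 libraries, WT and KO together, was 11.7% for Slc22a5 and 57.6% for Slc22a7. Without the WT replicate 1, Slc22a7 and Slc22a12 were called (log2 fold change 1.60 and 1.40, adjusted p = 0.00241 and adjusted p = 0.0112 by edgeR). Without the WT replicate 2, Slc22a2, Slc22a7 and Slc22a19 were called (1.47, 1.21 and 2.1, adjusted p = 0.0156, adjusted p = 0.0488 and adjusted p = 0.00588 by edgeR), where the lone WT library is assumed to vary like the KO pair. These fits called 2938 and 444 genes in all, against 0 with the 4 libraries.

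**Figure D4:**
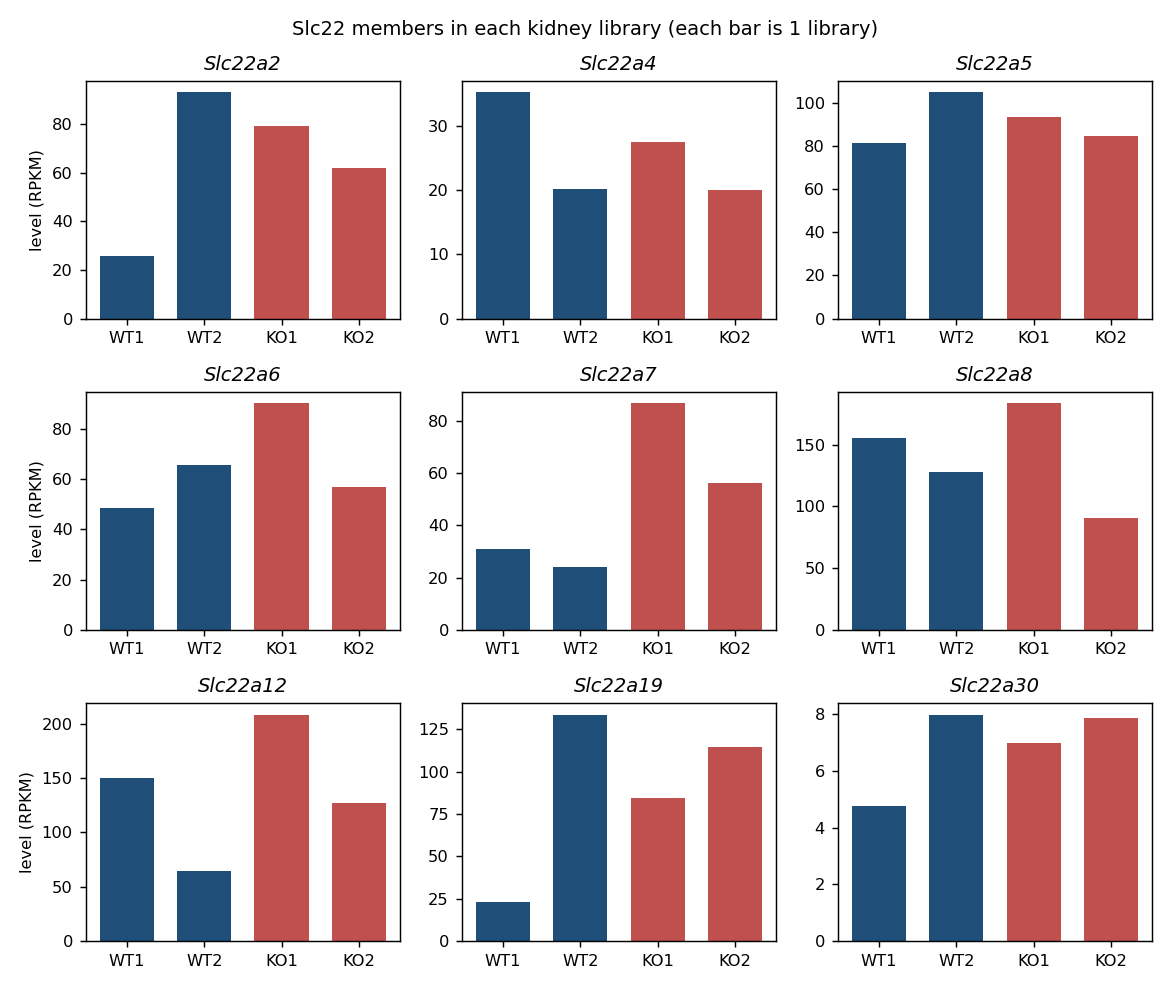
Level (RPKM, axis from 0) of the 9 members in each kidney library, blue WT and red KO, 1 bar for each library. Slc22a7 was higher in both KO libraries than in both WT libraries, whereas Slc22a2 and Slc22a19 were lowest and highest in the 2 WT libraries.

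The WT kidney libraries differed from each other along with the GC content of the transcripts. Over 17537 genes with a GC value the log2 ratio of WT replicate 1 to replicate 2 had a Pearson's r of 0.381 with GC content across genes, against 0.206 for the KO libraries. Its median was -0.377 over the genes up to the lower quartile of GC content (44.7%) and 0.997 over those from the upper quartile (54%). Among the members Slc22a12, at 57.9% GC, was higher in replicate 1 by 1.26 on the log2 scale, while Slc22a19, at 40.1%, had a log2 ratio of -2.47. Members of like GC content moved less, with Slc22a7 (56.7%) at 0.41 and Slc22a30 (40%) at -0.69. Slc22a2, at 51.1% GC, had a log2 ratio of -1.81. Kidney genes outside the family spread widely too, with Slc34a1 (54.7% GC) at 3.07, Slc12a3 (53.7%) at 4.06, Kap (42.9%) at -1.33, Slc7a13 (41.2%) at -4.05 and Slc5a12 (42.5%) at -0.32. A loess curve on GC content was then taken out of each library, and the SD of the log2 level was taken over the 4 kidney libraries. This SD fell from 0.72 to 0.27 for Slc22a12 and from 0.84 to 0.65 for Slc22a7. For Slc22a19 it was 1.13 before and 1.10 after, and for Slc22a2 0.81 before and 0.89 after. That of Slc22a5 rose from 0.15 to 0.22. With GC content offsets in the edgeR fit no kidney member was called. Any further part of GC content in these differences was not tested.

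**Figure D5:**
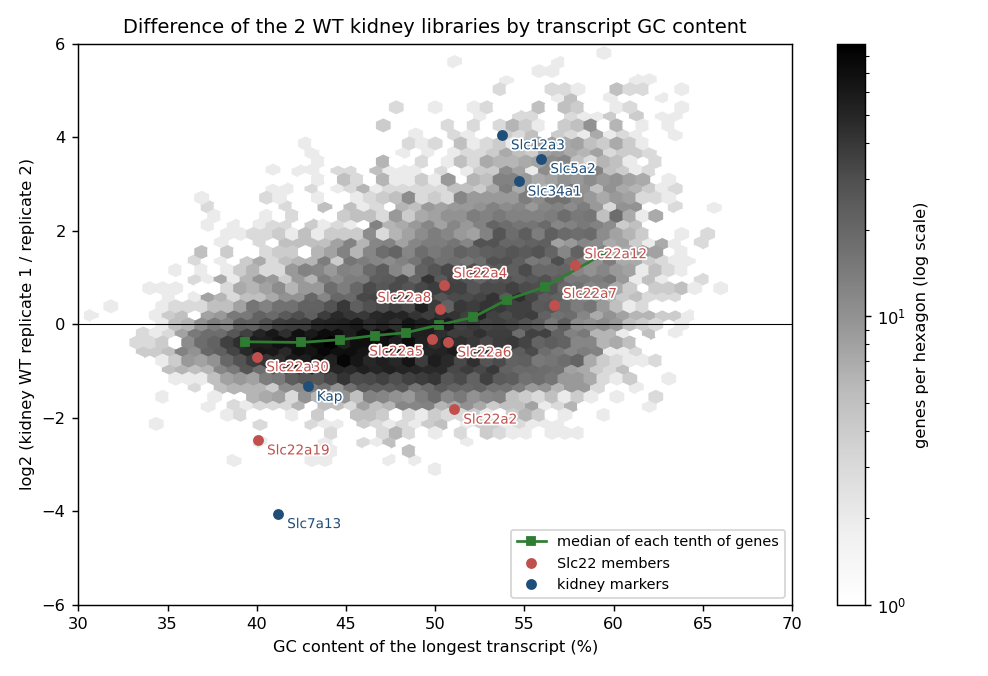
Log2 ratio of the WT kidney replicate 1 to replicate 2 for each gene (vertical axis) against the GC content of its longest transcript in percent (horizontal axis). Grey hexagons count genes on a log scale, the green line joins the medians over GC deciles, red points are the members and blue points kidney markers. Slc22a12 lay at 1.26, Slc22a2 at -1.81 and Slc22a19 at -2.47, while the median rose from -0.377 over the genes low in GC to 0.997 over those high in GC.

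No gene of the lists of other Slc22 members (16 of the 17 other genes of the family in the table, without Slc22a13b), organic ion and urate transport partners (16), carnitine synthesis and shuttle (10 of 11 in the table), urate synthesis and breakdown (4) and regulators (4) was called by genotype in any organ by edgeR. At an unadjusted p under 0.05 in the kidney (0.638% of all genes tested) there were 0 of 14, 0 of 14, 1 of 10 (Bbox1), 1 of 3 (Urah) and 0 of 4 of their tested genes. The liver (4.7%) had 1 of 11 of the Slc22 list (Slc22a29) and 1 of 14 transport partners (Pdzk1), and the spleen (5.14%) had 1 of 7 (Slc22a23) and 1 of 14 (Abcg2), with 0 for the other lists there and for all lists in small intestine and heart. These 6 genes are named after their values were seen. The median log2 fold change in the kidney was -0.03 over all genes tested, 0.02 for the other Slc22 genes, -0.14 for the transport partners and -0.25 for the carnitine genes. The 14 genes of the Slc22 list tested in the kidney were 7 higher and 7 lower in KO.

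Between organs, 8 of the 14 genes of that Slc22 list that were tested were called higher in the kidney than in the liver (21.1% of all genes tested) and 3 lower (13.6%). Of the 16 transport partners 8 were called higher in the kidney than in the liver and 2 lower, against the same shares of all genes. Slc17a1, a phosphate and urate transporter of the urine side, stood at 261.4 ± 61.1 RPKM in the kidney and at 14.6 ± 1.1 in the liver. Slc47a1 (MATE1), which passes cations taken up by Slc22a2 on into urine, stood at 146.8 ± 51.2 RPKM in the kidney and 89.6 ± 18.6 in the liver. Slc9a3r1, a scaffold of the brush border, was highest in the small intestine (310.6 ± 67.6).

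Of the genes of urate metabolism, all 4 were called higher in the liver than in the kidney (13.6% of all genes tested). Uox, the urate oxidase, stood at 782.1 ± 114.5 RPKM in the liver and at 0.03 to 0.32 in the kidney libraries. Xdh, which makes urate, was highest in the small intestine, at 45.4 and 186 RPKM in WT and 37.9 and 194 in KO, with both replicates 2 above both replicates 1.

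Of the 10 carnitine genes tested, 4 were called higher in the liver than in the kidney (13.6% of all genes tested) and 2 lower (21.1%). Between kidney and heart 4 were called higher in the kidney (19.9%) and 4 in the heart (18.1%). Acadm, which starts the breakdown of medium-chain fatty acids, stood at 494.4 ± 49.8 RPKM in the heart and 388.2 ± 172.7 in the kidney, and Crot, a peroxisomal carnitine acyltransferase, at 303.8 ± 61.1 in the liver. Aldh9a1, an enzyme of carnitine synthesis, stood at 108.8 ± 14.1 RPKM in the liver and 76.2 ± 20.6 in the kidney, an order that turned in TPM.

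Of the regulators, Hnf4a, a nuclear receptor of epithelial genes, stood at 134.6 ± 29.7 RPKM in the liver, 118.7 ± 27.9 in the small intestine, 94.4 ± 8.6 in the kidney and 0.03 ± 0.03 in the heart. In TPM the liver stood below small intestine and kidney. Ppara, the fatty acid receptor, was highest in the liver (16.1 ± 2.9).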

How the data were processed

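RNA-seq libraries of 5 organs from WT and Nsun6-KO mice (2 per organ and genotype) were analysed. Per the file header, the authors counted reads per gene with featureCounts 2.0.1 on an Ensembl GRCm38 annotation, and the submitters' processing notes name cutadapt, HISAT2 2.1.0 and mm10. The recorded command held no paired-end, strand or multi-mapping option, so mates may count separately and reads shared by near-identical genes are lost or not told apart. The study's methods name strand and read-pair options that this command lacks. The header was followed, and the conflict is not resolved. The library kit was stranded. The deposited counts were used as they are, with totals of 15897446 to 44508197 per library. Tests used edgeR 4.0.16 (TMM, filterByExpr, robust quasi-likelihood fit) in R 4.3.3: KO against WT in each organ alone, organ pairs and the interaction in 1 fit of 20 libraries. Genes were called at a fold change above 2 with an adjusted p below 0.1 (Benjamini-Hochberg, over all genes tested). DESeq2 1.42.0 was an alternative. The precision is set by 2 libraries per group, and p-values measure the spread between these libraries. GC content came from the longest GENCODE vM21 transcript. Levels in TPM, without TMM, were an alternative. Log2 CPM used a prior count of 2. Named genes were the 9 members, in each pathway list the called genes or the 3 highest on average, and for each member the 3 genes with the highest Pearson's r. The members and lists were chosen with earlier results of these data known. Same-numbered libraries are not stated to share an animal, so the numbers were not used as pairs. Alternatives without the spleen libraries that held liver or kidney transcripts, and with GC content offsets, were chosen after seeing the data. Some genes that this rule names are not reported here.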

Additional observations from a re-analysis of the deposited data

Results flagged for a closer look

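Of the members that passed the filter on low counts in both organs compared, Slc22a5 was the 1 whose KO libraries all lay below the WT libraries in one organ and all above them in another, in RPKM after TMM scaling. In TPM its small intestine libraries overlapped. Of all genes tested 33% did not overlap in liver and 25.1% in small intestine. In the small intestine its KO against WT log2 fold change was -0.23 (37.3 and 40.8 RPKM in WT, 35.8 and 33.5 in KO), while the liver gave 0.31 (12.6 and 15.2 RPKM in WT, 16.2 and 18.1 in KO). Neither was called (adjusted p = 1 and adjusted p = 0.999 by edgeR's quasi-likelihood test). The F test of the interaction over the 5 organs gave an adjusted p of 1 (edgeR), so the opposite directions are not shown to differ. Groups held 2 libraries each, too few to test a single library against its group.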

How the results depend on the processing

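The 8 members highest in the kidney were 8 under all 23 alternatives for the levels. In TPM 32 mean levels lay more than 1 SD above the means in RPKM. The units have different scales, so this shift is not read as a dependence on processing. For Slc22a5 the heart exceeded the liver in TPM. Between kidney and heart 9 members were called under all 27 alternatives. With the WT libraries alone 7 members were called between liver and kidney (9 with all) and 9 between small intestine and kidney (8 with all). For the organ pairs, the shares of all genes called under the alternatives are not given here. Changes in these member counts thus cannot be told apart from a general change in calls. Small intestine against heart called 3 members, but 6 with no filter on low counts, 5 without the spleen libraries that held liver or kidney transcripts, and 2 to 5 when 1 library was left out. Liver against heart called 3, but 5 with no filter. Spleen against heart called 3, and 3 to 5 when 1 library was left out. With no filter the interaction called 5 members (main 0), namely Slc22a6, Slc22a7, Slc22a8, Slc22a19 and Slc22a30. The spleen counts of Slc22a6, Slc22a8 and Slc22a19 all came from the KO replicate 1, which held kidney transcripts. The share of all genes called by this unfiltered fit is not given here, so these calls are not read as a result about the members. By genotype the spleen called 0 members, with 42 genes called in all. It called 1 member with DESeq2 (219 genes in all) and 3 with no filter (313). It called 1 with at least 10 counts in every library (105) and 1 with GC content offsets (122). These member calls thus cannot be told apart from a general rise in calls. With no filter the added calls were Slc22a6 and Slc22a8, whose spleen counts all came from the KO replicate 1. The kidney called 0, and 0 to 3 when 1 library was left out. With the WT libraries alone the log2 difference of liver minus heart for Slc22a5 turned from 0.089 to -0.089 and that of spleen minus heart for Slc22a4 from 0.69 to -0.013. In these cases the cause was not tested.

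Leaving out 1 library turned the direction of uncalled KO against WT log2 fold changes. In the liver they ran from -0.53 to 0.10 for Slc22a4 and from -0.43 to 0.55 for Slc22a7. In the spleen the spans were -0.17 to 0.12 for Slc22a5, -0.23 to 2.995 for Slc22a7, -0.58 to 1.07 for Slc22a12 and -5.52 to 2.74 for Slc22a30. Without the WT replicate 1 the value of Slc22a30 was -4.62. The only WT library in that fit was the replicate 2, which held liver transcripts and Slc22a30 at 1.93 RPKM. In the kidney they were -0.38 to 1.47 for Slc22a2, -0.57 to 0.25 for Slc22a4, -0.22 to 0.13 for Slc22a5, -0.006 to 0.69 for Slc22a6, -0.64 to 0.40 for Slc22a8, -0.41 to 2.1 for Slc22a19 and -0.083 to 0.64 for Slc22a30. In the heart they were -0.46 to 0.0021 for Slc22a4 and -0.37 to 0.32 for Slc22a5.

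The replicate numbers were tried as a block. Deviations of same-numbered libraries correlated at 0.568 (small intestine), 0.3626 (heart), 0.1233 (kidney), 0.0383 (liver) and 0.005 (spleen). The replicate block called 0 members in every organ, and genes called went from 8 to 20 in the liver, from 42 to 43 in the spleen and from 0 to 6 in the heart. With the block the liver value of Slc22a7 turned from -0.03 to 0.049. By genotype DESeq2 called 219 genes in spleen (edgeR 42), 61 in small intestine (edgeR 0), 56 in liver (edgeR 8), 2 in heart (edgeR 0) and 0 in kidney (edgeR 0). Over the other settings edgeR called 0 to 371 genes in spleen, 2 to 205 in liver, 0 to 2938 in kidney and 0 to 22 in heart. A count of 0 allows up to 3 counts at these depths if counts are independent. Folds against organs at 0 are lower bounds on that condition.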
